A study of Mus musculus with 34 samples.

Results

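Fenofibrate was compared with its vehicle in the liver of wild-type mice. The samples were chosen by their titles, which gave 8 of the 34 arrays in the study, 4 from mice given fenofibrate and 4 from mice given vehicle. All 8 were wild-type (WT) male C57Bl/6J mice of 14 weeks on a chow diet, killed at zeitgeber time 14 (hours after lights on). The treated mice received fenofibrate at 100 mg per kg per day and the others an aqueous 3% solution of gum arabic, both by daily gavage for 10 days. Each array held Cy3-labelled RNA from the liver of 1 mouse. The 2 comparisons with other lines used the whole-body Ppara knockout (KO, 3 vehicle and 5 fenofibrate mice) and the line labelled liver WT (LWT, 4 and 5), of the same strain, sex and age and given the same doses. Neither the promoter that deletes Ppara in the related liver knockout nor the allele behind the KO label is given in the sources used here. Mice are called vehicle mouse 1 to 4 and treated mouse 1 to 4 after their replicate numbers, which did not pair them.

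PPARA is a nuclear receptor that binds fatty acids and their derivatives and, paired with RXR, switches on genes for taking up and burning fat. It is abundant in hepatocytes, where it carries the response to fasting, and fenofibrate, a lipid-lowering drug, is converted in the body to an acid that activates it. Rodents are known for a strong hepatic response to such drugs, in which peroxisomes multiply. The PPARA and RXR pair binds a direct repeat of a short site with 1 base between its copies, called DR1.

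The letters AGGTCA, any 1 base (N), and AGGTCA again were searched on both strands of the RefSeq promoter windows of the mouse (build GRCm38.p6), which run from 250 bases before a gene's start to 50 after it, allowing 2 mismatches outside the free base. Of 32851 windows, 3.86% held a match. The share was 3.94% of 12010 windows of genes tested here, 4.97% of 302 windows of genes called at least 2-fold higher with fenofibrate and 5.24% of 210 windows of genes called at least 2-fold lower. In the gene lists of fatty acid metabolism it was 11.5% of 78 windows of members called higher and 8.0% of 50 windows of members not called, but with 1 mismatch 1.28% (1 window) and 2.0% (1 window), and with 3 mismatches 39.7% and 34%. Matches are to letters alone and show no binding, and a window without one says nothing about sites elsewhere. The 4 windows printed are those of called members of these lists with the fewest mismatches and, among equals, the largest change. Each is the stretch of 250 bases before the start, 5′ to 3′ on the strand of the gene, with the match in capitals. All 4 matches lie on the opposite strand, the first with 1 mismatch and the others with 2.
Acot12, chr13:91741271-91741520 (plus strand): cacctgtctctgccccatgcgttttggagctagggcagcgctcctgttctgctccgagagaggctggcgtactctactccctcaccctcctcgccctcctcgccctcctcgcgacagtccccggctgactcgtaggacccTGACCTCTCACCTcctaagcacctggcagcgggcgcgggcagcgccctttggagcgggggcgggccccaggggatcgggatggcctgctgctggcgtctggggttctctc
Cd36, chr5:17835897-17836146 (minus strand): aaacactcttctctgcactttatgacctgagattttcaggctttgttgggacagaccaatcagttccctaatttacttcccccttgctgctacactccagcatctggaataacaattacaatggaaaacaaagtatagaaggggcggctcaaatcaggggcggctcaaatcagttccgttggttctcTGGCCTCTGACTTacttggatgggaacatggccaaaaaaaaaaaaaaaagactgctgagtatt
Plin2, chr4:86670060-86670309 (minus strand): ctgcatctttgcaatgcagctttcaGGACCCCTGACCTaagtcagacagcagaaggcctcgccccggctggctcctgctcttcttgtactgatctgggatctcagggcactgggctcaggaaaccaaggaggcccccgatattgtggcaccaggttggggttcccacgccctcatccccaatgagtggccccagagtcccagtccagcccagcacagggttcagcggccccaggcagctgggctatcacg
Acot4, chr12:84038129-84038378 (plus strand): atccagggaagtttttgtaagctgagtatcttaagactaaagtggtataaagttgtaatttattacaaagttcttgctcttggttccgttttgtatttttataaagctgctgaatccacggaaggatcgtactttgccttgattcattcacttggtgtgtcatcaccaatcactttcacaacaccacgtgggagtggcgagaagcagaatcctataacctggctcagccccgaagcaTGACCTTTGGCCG
The match lies 110 to 98 bases before the start in Acot12, 63 to 51 in Cd36, 225 to 213 in Plin2 and 13 to 1 in Acot4.

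Levels are log2 spot intensities minus the 75th percentile of their own array, where a level of 0 is that percentile. A change is the mean of the treated mice minus that of the vehicle mice on the log2 scale, with its standard error (SE) from a limma fit. Calls are two-sided limma tests with Benjamini-Hochberg adjustment over 15963 genes at an adjusted p under 0.05. Levels of different genes come from different probes and are not compared. Between 29181 and 35164 probes were well above background on each of the 8 arrays, and no probe had most of its spots flagged as saturated. Across probes the arrays correlated at 0.985 to 0.994 within the groups and at 0.970 to 0.988 between them. Several arrays shared slides, and vehicle mouse 1 was the only one of the 8 on slide 1. Vehicle mice 2 and 4 were on slide 4, and treated mice 2 and 3 on slide 5. Only slide 3, with vehicle mouse 3 and treated mice 1 and 4, held both groups, so slide and treatment were largely confounded. All 15 hepatocyte marker genes were measured, with a summed level (on the linear scale, in units of the 75th percentile) of 10300 to 11400 in the vehicle mice and 9350 to 11000 in the treated mice. In bulk liver, fewer cells of a type and less RNA per cell cannot be told apart.

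Fenofibrate raised 1605 genes (10.1%) and lowered 1804 (11.3%). The counts of called members in each gene list are to be read against these shares. Changes of at least 2-fold were called for 420 higher genes (2.63%) and 275 lower genes (1.72%). Every treated mouse lay above or below every vehicle mouse in 4320 genes (27.1%), 2016 above and 2304 below. Among the 420 genes the groups did not overlap in 404, and among the 275 in 247. The median SD between mice was 0.35 in the vehicle and 0.29 in the treated mice for the 420 genes and 0.31 and 0.37 for the 275, against 0.18 and 0.15 over all genes tested. Vehicle mouse 1 had the lowest vehicle level in 190 of the 420, and vehicle mouse 4 in 57. Without vehicle mouse 1 the calls were 1403 higher and 1334 lower, with 396 and 245 at least 2-fold. With slide as a block they were 1681 and 1547, and within slide 3, which held 2 treated mice and 1 vehicle mouse, 99.7% of the called genes changed in the same direction, a share that is partly fixed because the genes were called on the same arrays.

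**Figure D1:**
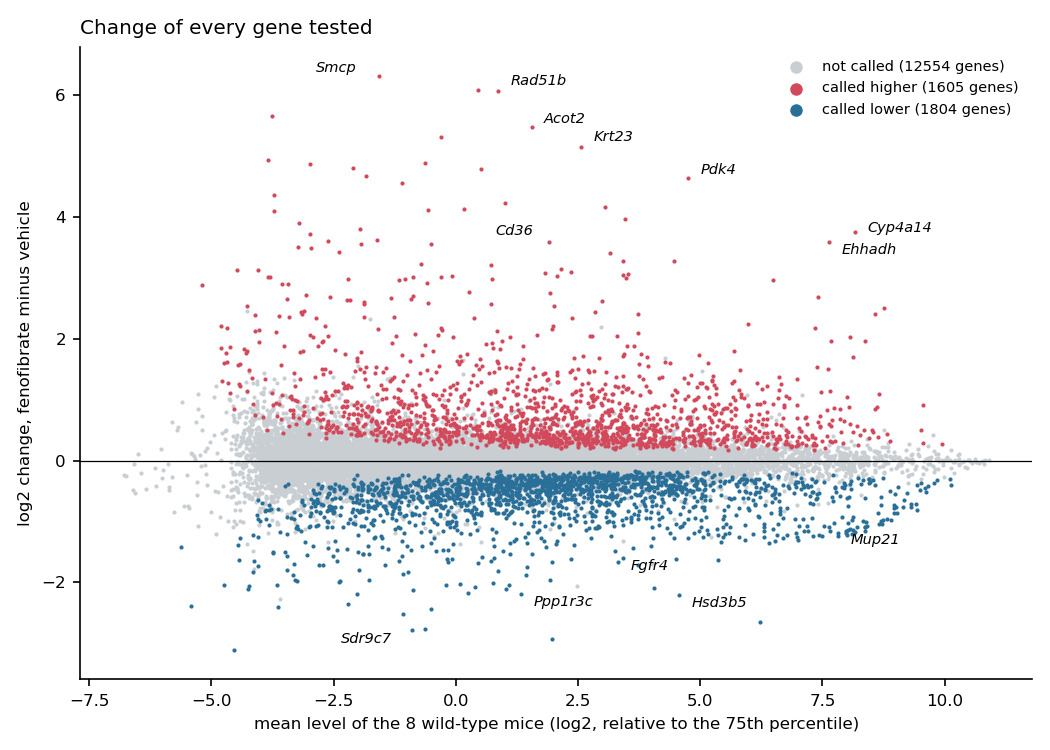
Change with fenofibrate in WT liver (log2, vertical) against the mean log2 level over the 8 mice (horizontal), 1 point per gene, for 15963 genes. Genes called higher (1605) and lower (1804) are coloured, and rises reach further from 0 than falls.

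The 15 anchor genes, known PPARA targets and Ppara itself, gave 11 higher, 0 lower and 4 that were not called. Ppara (probe at chromosome 15, 85632110 to 85632169 on mm9) read 6.86, 6.87, 7.06 and 7.28 in the vehicle mice and 7.06, 7.15, 6.84 and 7.12 in the treated mice. The groups overlapped and the receptor's transcript did not pass the test (0.03 ± 0.16, adjusted p = 0.932). Its probes at 2 other places gave 0.18 and 0.09, also without a call. Acot2, a mitochondrial enzyme that splits fatty acyl-CoA (probe at chromosome 12, 85334071 to 85334130), read -2.59, -1.50, -0.54 and -0.11 in the vehicle mice and 4.32, 4.80, 3.89 and 4.13 in the treated mice. All treated mice stood above all vehicle mice, a 44.4-fold rise (5.47 ± 0.38, adjusted p = 1.32e-11). Pdk4, a kinase that switches off pyruvate dehydrogenase (probe at chromosome 6, 5433441 to 5433500), read 0.24, 2.62, 3.10 and 3.73 in the vehicle mice and 6.90, 7.24, 6.86 and 7.28 in the treated mice. The treated mice lay within 0.42 of each other while vehicle mouse 1 fell far below the other vehicle mice; the change was 4.65 ± 0.50, adjusted p = 6.25e-08, and 3.92 without that mouse.

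Cd36, a fatty acid translocase of the cell membrane (probe at chromosome 5, 17288600 to 17288659), read 0.29, 0.22, 0.25 and -0.30 in the vehicle mice and 3.93, 4.22, 3.35 and 3.37 in the treated mice. Neither group had a straggler near the other, and the change was 3.60 ± 0.18, adjusted p = 3.33e-14. Ehhadh, the peroxisomal bifunctional enzyme of beta-oxidation (probe at chromosome 16, 21761914 to 21761973), read 4.58, 5.58, 6.14 and 7.08 in the vehicle mice and 9.50, 9.71, 9.23 and 9.33 in the treated mice. Its vehicle mice spread widely and its treated mice narrowly, with a rise of 3.59 ± 0.30, adjusted p = 6.62e-10. Vnn1, a pantetheinase, read 1.34, 1.81, 2.43 and 2.40 in the vehicle mice and 4.99, 5.35, 4.90 and 5.02 in the treated mice (3.07 ± 0.40, adjusted p = 1.29e-06). Plin2, the main coat protein of hepatic lipid droplets, read 6.39, 6.64, 7.25 and 7.88 in the vehicle mice and 9.0, 9.23, 8.95 and 9.09 in the treated mice (2.03 ± 0.26, adjusted p = 1.38e-06). In both genes the lowest treated mouse stood above the highest vehicle mouse.

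Other anchors changed less or did not pass the test. Cpt1a, the hepatic carnitine palmitoyltransferase that admits fatty acids to mitochondria, read 6.72, 6.85, 6.89 and 7.06 in the vehicle mice and 7.21, 7.09, 7.12 and 7.12 in the treated mice. It was called at 0.25 ± 0.08, adjusted p = 0.0231, but adjusted p = 0.0557 to 0.107 without vehicle mouse 1 or 2 or treated mouse 1, and a second probe gave 0.26 (adjusted p = 0.128). Angptl4, a secreted inhibitor of lipoprotein lipase, read 7.97, 8.20, 8.14 and 8.19 in the vehicle mice and 8.30, 8.18, 8.26 and 8.33 in the treated mice, with overlapping groups and no call (0.14 ± 0.10, adjusted p = 0.33). Fgf21, a fasting hormone made in liver, read -2.70, -0.47, -0.13 and 0.61 in the vehicle mice and 0.40, 1.71, 0.89 and 0.91 in the treated mice. Treated mouse 1 lay below vehicle mouse 4, and the change did not pass the test (1.65 ± 0.71, adjusted p = 0.102), though it did with normexp background correction and quantile normalization (1.29, adjusted p = 0.0046).

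**Figure D2:**
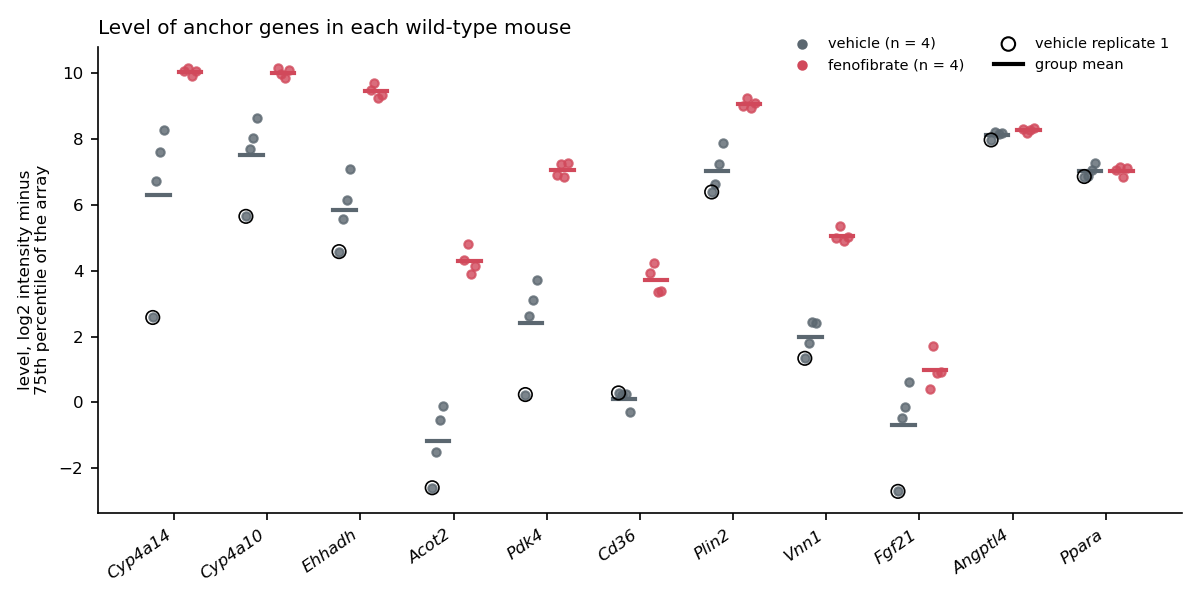
Log2 level above the 75th percentile of the array (vertical) in each of 4 vehicle and 4 fenofibrate WT mice for 11 genes, with the group means; vehicle mouse 1 is circled. The groups are apart in Cyp4a14, Cyp4a10, Ehhadh, Acot2, Pdk4, Cd36, Plin2 and Vnn1 and overlap in Fgf21, Angptl4 and Ppara.

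Of 23 tested genes that bring fatty acids into the cell and activate them, 11 were called higher and 0 lower, with a median change of 0.51 beside 0.00 over all genes tested. Besides Cd36 they included Slc27a1, a fatty acid transport protein (2.04 ± 0.19), and Acss3, an acyl-CoA synthetase of mitochondria (2.58 ± 0.38). Fabp2 (1.26 ± 0.16) and Fabp4 (2.05 ± 0.43), which carry fatty acids in the cytosol of intestine and fat cells, rose as well. Fabp3, the heart form, was called at 1.15 (adjusted p = 0.0561 to 0.293 without vehicle mouse 1, 2, 3 or 4 or treated mouse 1 or 2). Acsl6 was not tested.

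The carnitine shuttle, which carries long acyl chains into mitochondria, had 9 of 12 members higher, 0 lower and a median of 1.04. Crat, which moves acetyl groups between carnitine and coenzyme A, read -1.94, -1.73, -0.77 and -1.0 in the vehicle mice and 0.71, 1.10, 0.62 and 0.70 in the treated mice. The vehicle mice lay below 0 and the treated mice above it (2.14 ± 0.35, adjusted p = 3.22e-05). Cpt1b, the muscle form of the gatekeeper, rose by 2.03 ± 0.20. The carnitine transporters Slc22a5 (1.68 ± 0.24) and Slc22a21 (1.55 ± 0.20) rose with the peroxisomal transferase Crot (1.27 ± 0.20) and the mitochondrial carrier Slc25a20 (1.15 ± 0.13).

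Mitochondrial beta-oxidation had 19 of 26 members higher and 1 lower, with a median of 0.57. Acad12, an acyl-CoA dehydrogenase family member, rose by 1.53 ± 0.16, and Acadm, the medium-chain dehydrogenase, by 1.13 ± 0.13. Acadm read 6.69, 6.80, 7.02 and 7.13 in the vehicle mice and 8.06, 8.30, 7.88 and 7.92 in the treated mice. The 4 treated mice lay close together and above all vehicle mice (adjusted p = 1.1e-07). Eci1 (1.14 ± 0.12) and Decr1 (1.05 ± 0.11), which handle unsaturated chains, rose alike. Hadhb, a subunit of the trifunctional protein, rose by 1.03 ± 0.10 and Etfdh, which passes the electrons on to the respiratory chain, by 0.97 ± 0.10. The member that fell was Acadsb, the short and branched chain dehydrogenase, at -0.43 ± 0.09, adjusted p = 0.0011.

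Of 27 genes of peroxisomal oxidation, 16 rose and 1 fell (median 0.49). Acaa1b, a peroxisomal thiolase, read 7.0, 7.25, 7.56 and 7.77 in the vehicle mice and 9.38, 9.60, 9.11 and 9.32 in the treated mice, with no overlap (1.96 ± 0.22, adjusted p = 1.06e-07). Ech1 (1.16 ± 0.11), an isomerase of the same organelle, and Lonp2 (1.09 ± 0.09), its protease, also rose. Abcd2, a transporter of very long chains into peroxisomes, was called at 1.00 (adjusted p = 0.0513 to 0.105 without vehicle mouse 1 or 4 or treated mouse 1, 2, 3 or 4). Pipox, which oxidises pipecolic acid and sarcosine in peroxisomes, fell by 0.55 on the log2 scale (adjusted p = 0.0013). Without vehicle mouse 1, 13 members were called higher. Hao2 and Far1 were not tested.

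Proteins that build peroxisomes gave 11 higher and 0 lower of 20 (median 0.41). Pex11a, which elongates and divides peroxisomes, read 6.72, 7.12, 7.50 and 7.79 in the vehicle mice and 9.0, 9.18, 8.72 and 9.01 in the treated mice. The vehicle mice spread over 1.07 units and the treated mice over 0.46 (1.70 ± 0.20, adjusted p = 3.3e-07). The membrane and import proteins Pex14 (0.96 ± 0.20), Pex16 (0.87 ± 0.10), Pex19 (0.87 ± 0.12) and Pex3 (0.84 ± 0.10) rose as well.

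Acyl-CoA thioesterases, which release free fatty acids from coenzyme A, had 10 of 15 members higher, 0 lower and a median of 0.64. Acot1, the cytosolic form, read 4.52, 6.00, 6.69 and 7.06 in the vehicle mice and 8.78, 8.99, 8.47 and 8.76 in the treated mice. Vehicle mouse 1 was again the lowest by more than 1 unit, and the treated mice were within 0.52 of each other (2.68 ± 0.52, adjusted p = 0.000319). Acot3 rose by 3.27 ± 0.52, and the other genes of the family with printed promoters, Acot4 and Acot12, by 1.88 ± 0.25 and 0.64 ± 0.12. Acot5 read -0.83, 1.46, 2.42 and 2.85 in the vehicle mice and 5.41, 6.03, 5.04 and 5.30 in the treated mice; the change was 3.97 ± 0.66, or 3.20 without vehicle mouse 1. Acot6 changed by 2.67 ± 0.26 at its brightest probe and by 0.65 (adjusted p = 0.0678) at another. Acot1 to Acot6 lie in a cluster of close copies, and their probes may not separate them.

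Microsomal omega-oxidation, in which Cyp4 enzymes oxidise the far end of the chain, gave 11 higher and 2 lower of 21 (median 0.47), and 8 higher without vehicle mouse 1. Cyp4a14 read 2.58, 6.72, 7.60 and 8.28 in the vehicle mice and 10.06, 10.15, 9.91 and 10.06 in the treated mice. The treated mice differed by 0.24, and vehicle mouse 1 stood more than 4 units below the next vehicle mouse. The change was 3.75 ± 1.02, adjusted p = 0.00807. Without vehicle mouse 1 it was 2.51 (adjusted p = 0.0621), and without vehicle mouse 4 it was 4.41. Cyp4a10 read 5.65, 7.69, 8.02 and 8.64 in the vehicle mice and 10.15, 9.98, 9.85 and 10.08 in the treated mice, with the same low vehicle mouse (2.51 ± 0.67, adjusted p = 0.00679, and 1.90 with adjusted p = 0.0476 without it). Cyp4a31 was called at 2.41 (1.80, adjusted p = 0.0592, without vehicle mouse 1), and Cyp4a32 at 2.96 ± 0.73 (2.35 without vehicle mouse 1). With vehicle mouse 1 included, other probes of Cyp4a10 gave 2.83 (adjusted p = 0.0147) and 3.41 (adjusted p = 4.95e-05). Those of Cyp4a31 gave 3.41 (adjusted p = 2.65e-07) and 4.06 (adjusted p = 1.11e-05). Probes of these Cyp4a copies may not separate them.

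Other omega-oxidation genes varied less between vehicle mice. Cyp4f18 read 0.10, 0.20, -0.07 and 0.18 in the vehicle mice and 2.30, 2.12, 1.96 and 2.11 in the treated mice, with groups far apart (2.02 ± 0.11, adjusted p = 3.88e-14). Aldh3a2, which turns fatty aldehydes into acids, rose by 2.09 ± 0.15, the male-biased Cyp4a12a by 1.37 ± 0.28 and Cyp4f16 by 1.05 ± 0.17. Cyp4f14, a hydroxylase of leukotriene B, read 6.97, 6.77, 6.89 and 6.77 in the vehicle mice and 5.69, 5.39, 5.87 and 6.09 in the treated mice and so fell in all treated mice (-1.09 ± 0.12, adjusted p = 1.4e-07). Cyp4v3 fell with it (-0.62 ± 0.12, adjusted p = 0.000316).

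Ketone body genes gave 3 higher and 1 lower of 11 (median 0.33). Acat1, which joins acetyl groups, rose by 0.84 ± 0.11. Slc16a13, a monocarboxylate transporter family member, was called at 1.03 (adjusted p = 0.0527 to 0.064 without vehicle mouse 1 or treated mouse 2). A second probe of Slc16a13 gave 2.02 (adjusted p = 0.00101). Bdh2 was called at -0.55 (adjusted p = 0.0881 to 0.138 without vehicle mouse 1 or 3 or treated mouse 1). Coenzyme A synthesis and breakdown gave 9 higher and 1 lower of 15 (median 0.40). Ppcs, an enzyme of coenzyme A synthesis, read 2.16, 2.47, 2.76 and 2.83 in the vehicle mice and 4.24, 4.63, 4.14 and 4.12 in the treated mice, without overlap (1.73 ± 0.14, adjusted p = 4.05e-10). Slc25a42, which carries coenzyme A into mitochondria (1.02 ± 0.14), and the pantothenate kinase Pank1 (0.89 ± 0.17) rose, and Pank4 was called at -0.28 (adjusted p = 0.057 without vehicle mouse 1).

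Of 25 lipid droplet genes 12 were higher and 0 lower, with a median of 0.48. Cidec, which fuses droplets, read -0.52, 0.60, 1.22 and 2.60 in the vehicle mice and 5.25, 6.14, 4.74 and 4.44 in the treated mice. The vehicle mice ranged over 3.12 units and still lay below every treated mouse (4.17 ± 0.61, adjusted p = 8.3e-06). Cidea, its relative from brown fat, passed background on 1 of the 4 vehicle arrays and on all 4 treated arrays (3.81 ± 0.61, adjusted p = 3.07e-05). Hilpda (2.07 ± 0.30) and G0s2 (1.49 ± 0.30; 1.01, adjusted p = 0.0742, in the authors' deposited values), inhibitors of triglyceride breakdown, rose, and so did the lipase they inhibit, Pnpla2 (1.31 ± 0.21). Plin5, a coat protein of oxidative tissues, overlapped between the groups and did not pass (1.08 ± 0.47, adjusted p = 0.106).

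Triglyceride synthesis had 12 of 22 members higher and 2 lower (median 0.41). Mogat1, a monoacylglycerol acyltransferase, read -2.83, -3.26, -3.10 and -3.16 in the vehicle mice and 2.04, 2.51, 1.06 and 1.61 in the treated mice. Vehicle mice kept within 0.43 of each other, and the rise was 29.7-fold (4.89 ± 0.26, adjusted p = 3.88e-14). Aqp3, a water and glycerol channel, passed background on 2 of the 4 vehicle arrays and on all 4 treated arrays (4.81 ± 0.50, adjusted p = 3.49e-08). Gpat3 (3.01 ± 0.68) and Agpat2 (0.85 ± 0.12), which add acyl chains to the glycerol backbone, and Gpd2 (1.46 ± 0.12), a mitochondrial glycerol phosphate dehydrogenase, rose. Lpin1, a phosphatidate phosphatase that also coactivates PPARA, read 5.92, 5.92, 6.33 and 6.21 in the vehicle mice and 4.85, 4.34, 5.45 and 4.74 in the treated mice. It fell in all treated mice (-1.25 ± 0.22, adjusted p = 0.000126), and a second probe gave -2.16. Dgat2, the final acyltransferase, was called at -0.35 (adjusted p = 0.0525 to 0.137 without vehicle mouse 1, 2 or 3 or treated mouse 1, 2 or 3).

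Lipogenesis, desaturation and elongation gave 5 higher (18.5%) and 2 lower (7.41%) of 27 (median 0.27), beside 10.1% and 11.3% over all genes tested. Acacb, which makes the malonyl-CoA that restrains carnitine transfer, rose by 1.39 ± 0.17. The elongation enzymes Elovl5 (1.17 ± 0.18), Hsd17b12 (0.71 ± 0.13) and Hacd3 (0.56 ± 0.10) and the desaturase Fads2 (0.71 ± 0.14) rose. Acly, which makes cytosolic acetyl-CoA, read 6.39, 6.17, 6.48 and 5.61 in the vehicle mice and 4.56, 4.65, 5.23 and 5.86 in the treated mice. Treated mouse 4 lay within the vehicle range, and the call was -1.09 ± 0.28, adjusted p = 0.00487, with -0.76 (adjusted p = 0.0563) at a second probe. Mlxipl, the glucose-sensing factor ChREBP, was called at -0.29 (adjusted p = 0.0835 to 0.16 without vehicle mouse 1, 3 or 4 or treated mouse 1, 2 or 3), with 0.09 at a second probe.

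Cholesterol synthesis gave 10 higher and 1 lower of 27, with a median of 0.51. Hmgcs1, the cytosolic synthase at the head of the pathway, read 4.81, 4.31, 4.06 and 4.30 in the vehicle mice and 5.70, 6.15, 5.45 and 6.56 in the treated mice, without overlap (1.60 ± 0.35, adjusted p = 0.00137). Hsd17b7 rose by 1.17 ± 0.21, and Idi1 by 1.00 ± 0.28 with overlapping groups. Nsdhl was called at 0.98 (adjusted p = 0.0777 to 0.089 without vehicle mouse 3 or 4 or treated mouse 4). A second probe of Nsdhl gave 1.3 (adjusted p = 0.00398). Insig2, which holds the sterol sensor in the endoplasmic reticulum, rose by 2.24 ± 0.50, and Stard4, a sterol carrier, fell (-0.98 ± 0.26). Leaving out 1 of the 8 mice gave 6 to 10 higher genes, the fewest without treated mouse 4. In LWT mice the list had 1 higher and 1 lower gene and a median of 0.13.

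Among 30 genes of lipoproteins and plasma lipases 4 rose (13.3%) and 5 fell (16.7%), beside 10.1% and 11.3% over all genes tested. Without vehicle mouse 3 or 4 or treated mouse 1, 3 fell, and the median was 0.00. Lpl, the lipase of circulating triglyceride that adult liver makes little of, read 1.12, 0.98, 0.29 and 0.79 in the vehicle mice and 4.24, 4.15, 3.73 and 3.46 in the treated mice. The groups were more than 2 units apart (3.11 ± 0.36, adjusted p = 2.52e-07). Vldlr, a lipoprotein receptor (3.02 ± 0.43), and Pltp, the phospholipid transfer protein (2.41 ± 0.26), rose, and Mttp, which loads lipid onto apolipoprotein B, was called at 0.33 (adjusted p = 0.065 to 0.232 without vehicle mouse 1 or 2 or treated mouse 2 or 4). The members that fell were Angptl8 (-0.92 ± 0.25), Apom (-0.66 ± 0.09), Apoc3 (-0.32 ± 0.07), Apof at -0.36 (adjusted p = 0.0512 to 0.162 without any 1 of the 8 mice) and Apoh at -0.31 (adjusted p = 0.0574 to 0.0811 without vehicle mouse 3 or 4 or treated mouse 1). Apom, an apolipoprotein of HDL, read 8.07, 8.10, 7.91 and 8.10 in the vehicle mice and 7.34, 7.23, 7.45 and 7.51 in the treated mice, and all treated mice lay below all vehicle mice.

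**Figure D3:**
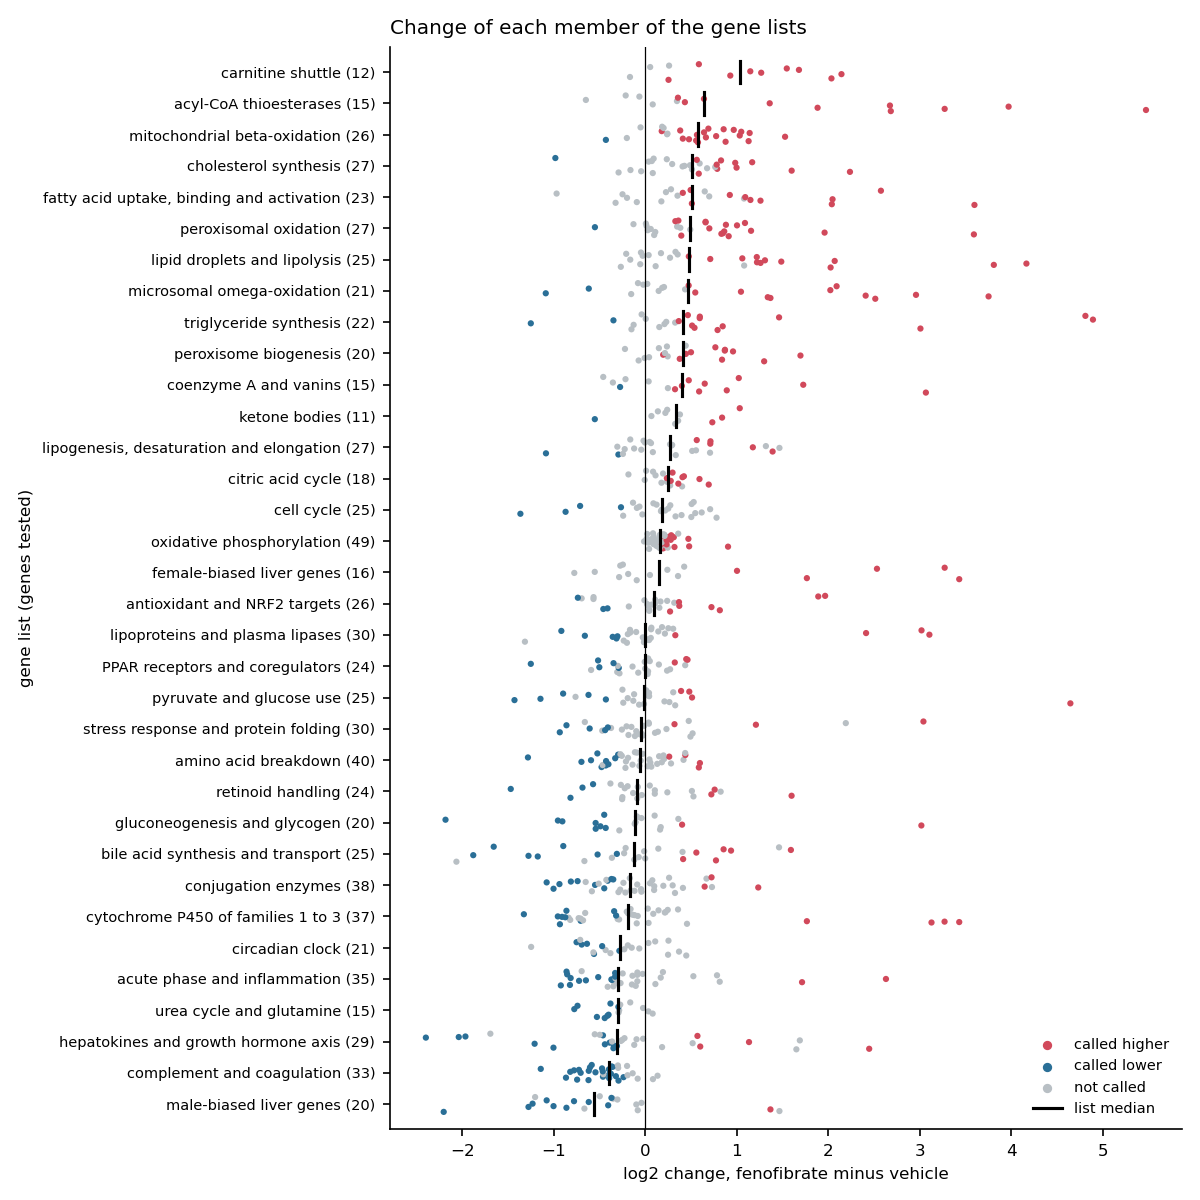
Change with fenofibrate (log2, horizontal) of every tested member of 34 gene lists, 1 point per gene, with the list's median marked. Medians run from 1.04 for the carnitine shuttle to -0.56 for male-biased genes.

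Transcripts of mitochondrial respiration changed little. Of 49 oxidative phosphorylation genes 14 rose and 0 fell, 48 had a positive change, and the median was 0.16. Without vehicle mouse 1 or treated mouse 2, 9 were called. In LWT mice 33 of the 49 were called higher, with a median of 0.25. Ndufab1, the acyl carrier protein of complex I, rose by 0.90 ± 0.14, Ndufb3 by 0.48 ± 0.11 and cytochrome c, Cycs, by 0.47 ± 0.11. Of 18 citric acid cycle genes 8 rose and 0 fell (median 0.25; 5 rose without treated mouse 2), among them Dlst (0.59 ± 0.11) and Suclg1 (0.41 ± 0.08). The uncoupling protein genes Ucp2 and Ucp3 had larger changes. Ucp2 read 0.40, 0.46, 0.53 and 0.34 in the vehicle mice and 2.44, 2.65, 1.60 and 2.59 in the treated mice. Ucp3 read 0.05, -0.11, 0.11 and -0.17 in the vehicle mice and 2.04, 2.36, 1.10 and 2.24 in the treated mice. Treated mouse 3 was the lowest treated mouse in both genes, which rose by 1.89 ± 0.25 and 1.97 ± 0.27 and are neighbours on chromosome 7.

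The antioxidant list that holds them gave 7 higher and 3 lower of 26 (median 0.09), with 4 higher without vehicle mouse 4 or treated mouse 2. Nqo1, a quinone reductase, was called at 0.81 (adjusted p = 0.0666 to 0.115 without vehicle mouse 2 or 4 or treated mouse 2, 3 or 4) and Srxn1, a peroxiredoxin reductase, at 0.72 (adjusted p = 0.0502 to 0.104 without vehicle mouse 2 or 4 or treated mouse 2). The subunits of the glutathione-making ligase were lower, Gclm at -0.41 and Gclc at -0.46 (adjusted p = 0.0963 to 0.139 without vehicle mouse 1 or 3 or treated mouse 1 or 3). Txnip, an inhibitor of thioredoxin, gave opposite calls at its probes. The brightest fell (-0.74 ± 0.21; adjusted p = 0.0684 to 0.0771 without vehicle mouse 2 or treated mouse 2) and another rose by 1.07.

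Glucose handling had genes on both sides. Pyruvate and glucose use gave 4 higher and 5 lower of 25 (median -0.02), with 3 lower without vehicle mouse 1 or treated mouse 1 or 2. With Pdk4 rose Pfkfb1 (0.51 ± 0.13; 0.36, adjusted p = 0.0716, in the authors' deposited values), a regulator of glycolysis, and the pentose phosphate enzymes Taldo1 (0.39 ± 0.09) and Pgd, at 0.48 (adjusted p = 0.0523 without treated mouse 2). Gckr, a regulatory protein of glucose use, was called at -0.43 and pyruvate kinase, Pklr, at -1.15 (adjusted p = 0.0624 to 0.0723 without vehicle mouse 1 or treated mouse 1 or 2). The fructose enzymes Khk (-0.62 ± 0.14, adjusted p = 0.00168) and Tkfc (-0.90 ± 0.19, adjusted p = 0.00101) fell without overlap.

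Gluconeogenesis and glycogen gave 2 higher and 8 lower of 20 (median -0.11), and 8 were lower in each of the 8 fits that left out 1 mouse. Ppp1r3c, which targets a phosphatase to glycogen, read 1.54, 2.45, 3.54 and 2.17 in the vehicle mice and 0.92, 0.61, -0.84 and 0.26 in the treated mice. Both groups scattered, yet did not overlap (-2.19 ± 0.58, adjusted p = 0.00723). Its hepatic relative Ppp1r3b read 7.13, 7.81, 7.87 and 7.55 in the vehicle mice and 6.75, 6.20, 6.91 and 6.66 in the treated mice (-0.96 ± 0.15, adjusted p = 2.1e-05). Also lower were Ugp2, which makes the glucose donor of glycogen (-0.91 ± 0.19; a second probe gave -0.59, adjusted p = 0.0667), and the phosphorylase Pygl (-0.54 ± 0.15). Slc37a4, the glucose 6-phosphate transporter, fell (-0.54 ± 0.11; a second probe gave -0.64, adjusted p = 0.186). Pyruvate carboxylase, Pcx, rose by 0.40 ± 0.11. Fbp2, the muscle fructose bisphosphatase, was not well above background in any vehicle mouse and was above it in all 4 treated mice, at least 4.03-fold higher (adjusted p = 1.82e-05).

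Amino acid breakdown gave 4 higher and 10 lower of 40 (median -0.06), with 2 higher without vehicle mouse 1 or 2 or treated mouse 1 or 2. Acmsd, which diverts tryptophan away from NAD synthesis, read 1.15, 1.81, 1.07 and 1.60 in the vehicle mice and 0.07, 0.32, -0.06 and 0.16 in the treated mice, without overlap (-1.28 ± 0.29, adjusted p = 0.00155). Got1 (-0.70 ± 0.18; -0.58, adjusted p = 0.0568, in the authors' deposited values), Gnmt (-0.59 ± 0.11) and Cdo1 (-0.52 ± 0.14), of aspartate, glycine and cysteine metabolism, fell. The higher members were Mccc2 (0.44 ± 0.12) and Bckdhb (0.26 ± 0.07; adjusted p = 0.0964 with the WT arrays fitted alone), of leucine and branched chain breakdown, with Aass at 0.60 (adjusted p = 0.0663 to 0.12 without vehicle mouse 1 or 2 or treated mouse 1 or 2) and Tdo2 at 0.58 (adjusted p = 0.0547 to 0.176 without vehicle mouse 1 or 2 or treated mouse 1, 2 or 4).

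The urea cycle and glutamine list gave 0 higher and 8 lower of 15, with a median of -0.30. Gls2, the hepatic glutaminase, read 7.22, 7.13, 7.08 and 7.22 in the vehicle mice and 6.19, 6.44, 6.42 and 6.49 in the treated mice (-0.78 ± 0.13, adjusted p = 3.47e-05). Otc read 6.28, 6.28, 6.24 and 6.34 in the vehicle mice and 5.82, 5.82, 5.75 and 5.63 in the treated mice (-0.53 ± 0.10, adjusted p = 0.000176). The 4 treated mice were below the 4 vehicle mice in both genes. Ass1 (-0.42 ± 0.10) and Cps1 (-0.44 ± 0.11), further steps of the cycle, were lower, and Asl was called at -0.40 (adjusted p = 0.0536 without vehicle mouse 4). Slc38a2, a carrier of neutral amino acids, was called at -0.74 (adjusted p = 0.0536 to 0.0944 without vehicle mouse 2 or treated mouse 1 or 2).

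Complement and coagulation factors, which hepatocytes secrete into plasma, fell. Of 33 tested, 24 (72.7%) were called lower and 0 higher, beside 11.3% and 10.1% over all genes tested, and the median was -0.40. In 27 every treated mouse lay below every vehicle mouse, as in 2304 of the 15963 genes tested. Leaving out 1 mouse gave 22 to 25 lower members. Hepatocyte markers leaned the same way, with 13 of 15 changes negative, a median of -0.20, and 3 called lower and 1 higher. C9, the pore-forming component of complement, read 3.60, 3.07, 3.07 and 3.17 in the vehicle mice and 2.29, 1.60, 2.24 and 2.19 in the treated mice. Treated mouse 2 was the lowest and the groups did not overlap (-1.14 ± 0.17, adjusted p = 1.16e-05). The pore components C8a (-0.78 ± 0.14) and C8b (-0.73 ± 0.19; -0.49, adjusted p = 0.0734, with slide as a block) and the protease C1s1 (-0.82 ± 0.12) fell. So did the clotting factors F11 (-0.87 ± 0.16) and F7 (-0.75 ± 0.13). In LWT mice 21 were lower, and in KO mice the median was 0.01.

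**Figure D4:**
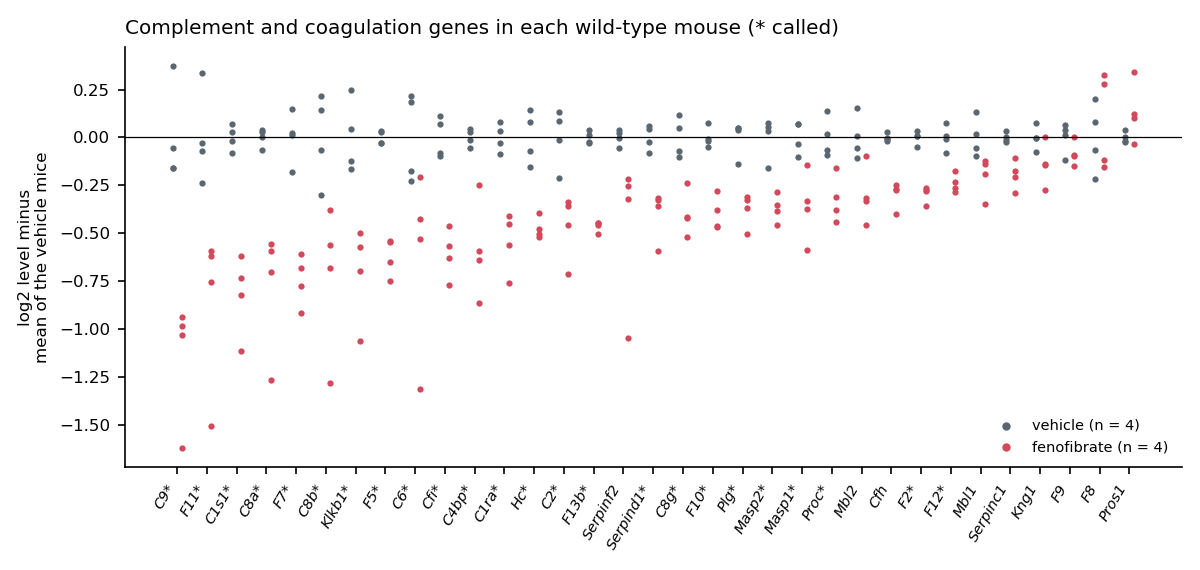
Log2 level of 33 complement and coagulation genes in each of the 8 WT mice, minus the vehicle mean of the gene; an asterisk marks the 24 genes called lower. The mean change is negative in 31 of the 33 genes, and treated mouse 2 is the lowest in C9, C8a, C8b and F11.

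Acute phase and inflammation genes gave 2 higher and 12 lower of 35 (median -0.30), and 1 and 5 without vehicle mouse 1. Without vehicle mouse 4 the lower genes were 7, and without treated mouse 1 or 2 they were 6. Saa4, the constitutive serum amyloid, read 5.37, 5.47, 5.74 and 5.73 in the vehicle mice and 4.83, 4.28, 4.62 and 4.89 in the treated mice (-0.92 ± 0.22, adjusted p = 0.00224). Crp, the pentraxin, fell by 0.82 (adjusted p = 0.000106). Both had all treated mice below all vehicle mice. Among less firm calls were Steap4 at -0.86 (adjusted p = 0.0564 to 0.153 without vehicle mouse 1, 2, 3 or 4 or treated mouse 1, 2 or 4), Icam1 at -0.85 (adjusted p = 0.0554 without vehicle mouse 1) and the fibrinogen chain Fgb at -0.36 (adjusted p = 0.0525 to 0.122 without vehicle mouse 1 or 4 or treated mouse 1, 2 or 3). Il1rn, the interleukin 1 receptor antagonist, was above background in 3 of 4 vehicle and 4 of 4 treated mice and rose (2.63 ± 0.28, adjusted p = 5.02e-08). Orm3 was called higher at 1.71 (adjusted p = 0.0505 to 0.105 without vehicle mouse 1 or 2 or treated mouse 1 or 2).

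Bile acid synthesis and transport gave 6 higher and 7 lower of 25 (median -0.12). Slco1a4 and Slco1a1, uptake carriers of bile acids and drugs, fell by 1.88 and 1.28 on the log2 scale. Slco1a1 read 4.75, 4.68, 4.65 and 4.59 in the vehicle mice and 3.47, 2.68, 3.59 and 3.82 in the treated mice. Slco1a4 read 2.02, 2.40, 2.66 and 2.40 in the vehicle mice and -0.15, 0.13, 0.91 and 1.06 in the treated mice. The groups were apart in both (adjusted p = 3.83e-06 and adjusted p = 8.55e-07). Fgfr4, the hepatic receptor of the gut hormone that restrains bile acid synthesis, read 4.35, 4.05, 4.07 and 4.10 in the vehicle mice and 2.22, 2.40, 2.69 and 2.63 in the treated mice. Every treated mouse was more than 1 unit below every vehicle mouse (-1.66 ± 0.12, adjusted p = 1.69e-11). Slc10a2 fell as well (-1.18 ± 0.32). The export pumps Abcc3 (0.94 ± 0.13) and Abcc4 (1.59 ± 0.16) rose. Cyp7a1, the rate-limiting enzyme of bile acid synthesis, read 4.56, 4.43, 2.23 and 2.82 in the vehicle mice and 1.77, 0.36, 2.28 and 1.36 in the treated mice. Vehicle mice 3 and 4 lay near the treated mice, and the change did not pass (-2.07 ± 0.79, adjusted p = 0.0601), though it did with the WT arrays fitted alone (adjusted p = 0.043) and without vehicle mouse 3 (-2.49, adjusted p = 0.0354).

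Cytochromes P450 of families 1 to 3, which oxidise steroids and drugs, gave 4 higher and 9 lower of 37 (median -0.19). Cyp2b10, the classic target of the receptor CAR, read 0.66, 2.07, 2.77 and 1.64 in the vehicle mice and 4.40, 7.32, 3.46 and 5.05 in the treated mice. Treated mouse 2 was far above the rest (3.27 ± 0.83, adjusted p = 0.00451, and 2.52 without that mouse). Cyp2b9 was above background on 2 of 4 vehicle arrays (3.43 ± 0.92, and 2.71 without treated mouse 2), and its call was lost with normexp (1.52, adjusted p = 0.0943) and in the authors' deposited values (1.96, adjusted p = 0.0545). Cyp2b13 and Cyp2a22 were not well above background in any vehicle mouse and were at least 1.96-fold (adjusted p = 0.00575) and 3.71-fold (adjusted p = 0.000205) higher with fenofibrate. Cyp2b13 lost its call with normexp (adjusted p = 0.0972). The Cyp2b copies are near identical and their probes may not separate them. Cyp2d40 fell by 1.33 (adjusted p = 6.05e-05) and Cyp2c70, which makes muricholic acid, was called at -0.96 (adjusted p = 0.0532 without vehicle mouse 4).

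Conjugation enzymes gave 3 higher and 10 lower of 38 (median -0.17). Gstp1, a glutathione transferase that male mice express more, read 9.04, 8.84, 8.71 and 8.98 in the vehicle mice and 7.55, 7.76, 8.13 and 8.11 in the treated mice (-1.0 ± 0.15, adjusted p = 1.3e-05). Ugt2a3 (-0.81 ± 0.11) and Sult1c2 (-0.94 ± 0.22) were lower too, and Sult5a1 was called at -1.08 (adjusted p = 0.0612 to 0.117 without vehicle mouse 1 or 2 or treated mouse 1, 3 or 4). Gstt2 (1.23 ± 0.19), the peroxisomal and mitochondrial transferase Gstk1 (0.65 ± 0.10) and Ephx2 (0.72 ± 0.12), a peroxisomal and cytosolic epoxide hydrolase, rose.

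Of 20 genes that male mice express more in liver, 10 were called lower and 1 higher (Cyp4a12a), with a median of -0.56. Mup21, a major urinary protein, read 8.72, 8.48, 8.16 and 8.38 in the vehicle mice and 7.39, 6.75, 7.17 and 7.49 in the treated mice. The groups were 0.67 apart (-1.23 ± 0.13, adjusted p = 7.8e-08). Hsd3b5, a steroid reductase of male liver, read 6.63, 5.86, 5.53 and 4.63 in the vehicle mice and 3.62, 1.79, 4.59 and 3.83 in the treated mice, with the groups barely apart (-2.21 ± 0.56, adjusted p = 0.00508). The female-biased list gave 5 higher and 0 lower of 16 (median 0.15): Cyp2b9, Cyp2b13, Acot3, Abcd2 and Slc22a27. Of these, Slc22a27 was above background in no vehicle mouse and was at least 2.57-fold higher (adjusted p = 3.49e-07). The calls of Cyp2b9, Cyp2b13 and Abcd2 were lost in some alternatives, as given above.

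Hormone and growth hormone axis genes gave 4 higher and 11 lower of 29 (median -0.31), and 1 and 7 without vehicle mouse 1. The lower genes were 7 without vehicle mouse 4 and 6 without treated mouse 1 or 2, and the higher gene was 1 without vehicle mouse 2 or treated mouse 2. Serpina12, the adipokine vaspin, was above background in 4 of 4 vehicle and 2 of 4 treated mice, with overlap (-2.40 ± 0.50, adjusted p = 0.000788). Socs2, a feedback inhibitor of growth hormone signalling, read 1.60, 1.72, 1.76 and 3.37 in the vehicle mice and 0.12, -0.91, 1.87 and -0.79 in the treated mice. Its relative Cish read 3.12, 1.56, 2.59 and 4.37 in the vehicle mice and 0.28, 0.26, 2.04 and 1.19 in the treated mice. Vehicle mouse 4 was the highest in both and the groups overlapped. Socs2 was called at -2.04 (adjusted p = 0.0573 to 0.112 without vehicle mouse 4 or treated mouse 1, 2 or 4), moving to -2.64 without treated mouse 3, and Cish at -1.97 (adjusted p = 0.0552 to 0.107 without vehicle mouse 1 or 4 or treated mouse 1 or 2). Inhba was called at -1.21 (adjusted p = 0.0638 to 0.0712 without vehicle mouse 1 or treated mouse 2). Higher were Inhbe (1.13 ± 0.25; 0.77, adjusted p = 0.0585, in the authors' deposited values), which encodes activin E, Gdf15, a stress hormone, at 2.45 (adjusted p = 0.052 to 0.163 without vehicle mouse 1, 2 or 4 or treated mouse 1, 2, 3 or 4), Igfbp2 at 0.60 (adjusted p = 0.0541 to 0.11 without vehicle mouse 1 or 2 or treated mouse 1 or 2) and Stat5a at 0.57 (adjusted p = 0.0579 to 0.124 without vehicle mouse 1, 2 or 3 or treated mouse 1 or 2).

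Circadian clock genes, sampled at 1 time of day, gave 0 higher and 6 lower of 21 (median -0.28). Usp2 read 4.20, 4.28, 4.32 and 4.16 in the vehicle mice and 3.43, 3.67, 3.35 and 3.50 in the treated mice (-0.75 ± 0.16, adjusted p = 0.000815). All treated mice were below all vehicle mice. Bhlhe40 (-0.64 ± 0.18), Cry2 (-0.28 ± 0.08) and Per1 (-0.56 ± 0.11) fell, Per1 with -0.04 at a second probe, and Nfil3 and Tef were called at -0.70 (adjusted p = 0.0506 to 0.0647 without vehicle mouse 3 or treated mouse 1 or 2) and -0.47 (adjusted p = 0.0699 to 0.142 without vehicle mouse 1 or treated mouse 1 or 2). The stress and folding list gave 3 higher (10.0%) and 5 lower (16.7%) of 30 (median -0.05), beside 10.1% and 11.3% over all genes tested. It had 3 lower without vehicle mouse 1 or 4 or treated mouse 4 and 1 without treated mouse 2. Gadd45b, induced by stress and by cell growth, read -0.45, 0.88, 0.91 and 0.85 in the vehicle mice and 3.65, 4.19, 3.09 and 3.42 in the treated mice, the groups being more than 2 units apart (3.04 ± 0.55, adjusted p = 0.000162). The chaperone Hspa1a rose by 1.21 ± 0.26, and Hspa8 was called at 0.32 (adjusted p = 0.0529 to 0.125 without vehicle mouse 1 or treated mouse 1, 2 or 4). Dnajc3, a co-chaperone of the endoplasmic reticulum, fell (-0.61 ± 0.11, adjusted p = 8.12e-05). Hspa5, Pdia3, Sdf2l1 and Chac1 were called lower, at -0.44 (adjusted p = 0.0548 to 0.162 without vehicle mouse 1 or 2 or treated mouse 2 or 4), -0.41 (adjusted p = 0.0707 to 0.117 without vehicle mouse 1 or 4 or treated mouse 2 or 4), -0.86 (adjusted p = 0.0652 to 0.0661 without vehicle mouse 1 or treated mouse 2) and -0.94 (adjusted p = 0.0551 to 0.115 without vehicle mouse 3 or 4 or treated mouse 1 or 2).

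Cell cycle genes gave 0 higher and 4 lower of 25, with a median of 0.18. The 4 were Ccne1 (-1.37 ± 0.28), Cdt1 (-0.87 ± 0.18), Rrm2 (-0.71 ± 0.19) and Pcna, at -0.27 (adjusted p = 0.0523 to 0.113 without vehicle mouse 2, 3 or 4 or treated mouse 2, 3 or 4). Retinoid genes gave 3 higher (12.5%) and 4 lower (16.7%) of 24 (median -0.09), also near the shares over all genes tested. They had 2 lower without vehicle mouse 1 or 3 or treated mouse 1. Rdh16 (1.60 ± 0.25), Dhrs4 (0.72 ± 0.12) and Aldh1a7 (0.76 ± 0.18) rose. Rdh5 (-0.82 ± 0.15) and the receptor Rara (-0.69 ± 0.16; a second probe gave -0.38, adjusted p = 0.144) fell, and Cyp26a1, which degrades retinoic acid, and Bco1 were called at -1.47 (adjusted p = 0.0522 to 0.117 without vehicle mouse 1, 2 or 3 or treated mouse 1 or 3) and -0.57 (adjusted p = 0.0556 to 0.127 without vehicle mouse 1, 3 or 4 or treated mouse 1, 2 or 4).

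The receptor and coregulator list gave 3 higher (12.5%) and 5 lower (20.8%) of 24 (median 0.00), beside 10.1% and 11.3% over all genes tested. CAR, Nr1i3, was called at 0.45 (adjusted p = 0.0556 to 0.0697 without vehicle mouse 2 or 4 or treated mouse 1 or 4), PXR, Nr1i2, at 0.46 (adjusted p = 0.0603 without vehicle mouse 1), and Creb3l3, a partner of PPARA, at 0.32. The bile acid receptor FXR, Nr1h4, read 6.72, 6.23, 6.21 and 6.39 in the vehicle mice and 5.84, 5.81, 5.91 and 5.94 in the treated mice, without overlap (-0.52 ± 0.14, adjusted p = 0.00775). Besides it and Lpin1 fell the coactivators Ncoa3 (-0.50 ± 0.09, with 0.10 at a second probe) and Ncoa2 (-0.29 ± 0.08; -0.20, adjusted p = 0.074, in the authors' deposited values) and the deacetylase Sirt1 (-0.35 ± 0.08).

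Some of the largest rises lay outside the fatty acid lists. Smcp, a sperm mitochondrial protein, read -5.67, -4.15, -4.23 and -4.91 in the vehicle mice and 1.66, 3.01, 0.35 and 1.31 in the treated mice; it passed background on 1 of the 4 vehicle arrays and on all 4 treated arrays (6.32 ± 0.54, adjusted p = 9.08e-10). Rad51b, a DNA repair protein, read -3.46, -2.58, -1.51 and -1.13 in the vehicle mice and 3.84, 4.53, 3.52 and 3.72 in the treated mice. The treated mice spread over 1.01 units and the vehicle mice over 2.33 (6.07 ± 0.53, adjusted p = 1.26e-09). Hrob, which loads a DNA helicase, rose by 4.79 ± 0.31. Krt23, a keratin, read -0.28, -0.58, 0.50 and 0.29 in the vehicle mice and 5.06, 5.59, 4.86 and 4.99 in the treated mice, the groups being more than 4 units apart (5.14 ± 0.33, adjusted p = 2.52e-12). Cfd, adipsin, read -2.46, -2.63, -3.30 and -3.45 in the vehicle mice and 3.86, 1.54, 2.28 and 1.76 in the treated mice, with treated mouse 1 highest (5.32 ± 0.94, adjusted p = 0.000103). Ly6d, a membrane protein best known from B cell precursors, read -1.18, -1.22, -1.35 and -0.67 in the vehicle mice and 3.25, 4.39, 2.24 and 2.61 in the treated mice (4.23 ± 0.39, adjusted p = 4.28e-09). Ctse, an aspartic protease, Fam183b, Chil1 and the adrenergic receptor Adra2a were not well above background in any vehicle mouse and were above it in all treated mice. They were at least 10.9-fold, 14.3-fold, 7.98-fold and 7.18-fold higher (adjusted p = 1.56e-16, adjusted p = 5.7e-11, adjusted p = 2.97e-06 and adjusted p = 1.67e-06).

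Among the largest falls, Sdr9c7, a short-chain dehydrogenase, read 0.66, 0.47, 0.30 and 0.57 in the vehicle mice and -2.73, -2.40, -1.95 and -2.06 in the treated mice. The groups were more than 2 units apart (-2.78 ± 0.26, adjusted p = 4.25e-09). Ces1a, a carboxylesterase, was above background in every vehicle mouse and in no treated mouse, at least 3.04-fold lower (adjusted p = 2.89e-06). Cabyr (-2.93 ± 0.83), the receptors Adgrf1 (-2.44 ± 0.38) and Lgr5 (-2.36 ± 0.49, above background in 3 of 4 treated mice) and Serpina9 (-2.52 ± 0.52) fell. So did Map2k6 (-2.12 ± 0.34), Ihh (-2.19 ± 0.44), Col27a1 (-2.17 ± 0.36) and Lrtm1 (-2.12 ± 0.43). Serpina4-ps1 was called at -2.64 (adjusted p = 0.0511 without treated mouse 2), and -3.35 without treated mouse 3. Tmeff2 was above background in 3 of 4 vehicle and no treated mice, with overlapping values, at least 1.3-fold lower (adjusted p = 0.000633), a call lost with normexp (adjusted p = 0.128) and in the authors' deposited values (adjusted p = 0.0746).

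Markers of other cell types gave few calls. The summed levels of 15 Kupffer cell markers were 132 to 191 in vehicle and 147 to 239 in treated mice, with 0 called by limma at the adjusted threshold. Their changes were positive in 14 and negative in 1 (median 0.14), beside 7922 positive of 15963 genes tested. The summed levels of 13 endothelial markers were 138 to 170 and 130 to 169, also with 0 called. The 13 stellate cell markers summed to 119 to 162 and 111 to 167, with Hgf called at -0.53 (adjusted p = 0.0685 to 0.0875 without vehicle mouse 1 or treated mouse 2 or 3). For 12 lymphocyte and neutrophil markers the sums were 64.0 to 127 and 78.8 to 113, with Nkg7 higher (0.62 ± 0.10; a second probe gave 0.74, adjusted p = 0.289) and Ly6g called at -0.43 (adjusted p = 0.0557 to 0.119 without vehicle mouse 2, 3 or 4 or treated mouse 2 or 4). Red blood cell markers summed to 191 to 302 and 162 to 274, with Alas2 lower (-0.75 ± 0.15). Among hepatocyte markers Trf (-0.40 ± 0.09), Cps1 and Fgb were called lower and Tdo2 higher. Trf changed by -0.13 at a second probe and by -0.05 (adjusted p = 0.682) in the authors' deposited values. The calls of Fgb and Tdo2 were lost without some single mice, as given above.

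Called genes made up most of the summed bile duct and fat cell markers in the treated mice. The sum of 10 cholangiocyte markers was 11.9 to 14.6 in vehicle and 45.2 to 59.5 in treated mice, and 10.6 to 13.8 and 11.3 to 16.2 without Krt23. Of 7 adipocyte markers the defining genes Adipoq, Lep and Plin1 were not tested because no group had them above background on every array. The 4 others summed to 3.98 to 5.83 and 15.5 to 40.6, with Cfd and Fabp4 called, and to 1.15 to 1.77 and 2.23 to 2.66 without these, so the sums of the uncalled members were apart as well. The part of other cells in the rise of Cfd and Fabp4 was not tested. Pancreatic acinar markers summed to 12.0 to 16.4 and 10.6 to 12.6. Cela2a, above background in 3 of 4 treated mice, was called at -1.50 (adjusted p = 0.0648 to 0.194 without vehicle mouse 1, 2 or 4 or treated mouse 2), and Cpa1, Prss2, Pnlip and Try4 were not tested.

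The WT response was set against that of LWT mice, which share no animals with it. The interaction test of WT minus LWT called 0 genes (0.0%) by limma, with 681 of 15963 at an unadjusted p under 0.05. That share is below the 0.05 that the threshold would pass if no gene differed. Of the 420 genes at least 2-fold higher in WT, 415 had a positive change in LWT, with a median of 1.13 beside 1.48, and of the 275 lower genes 271 were negative, with -1.1 beside -1.24. These genes were chosen on their WT change, so a smaller median in another group follows in part from the choice. Ly6d came nearest to a call. In LWT mice it read -0.85, -0.69, 1.54, -0.80 and -0.41 with fenofibrate and -1.24, -1.21, -1.87 and -1.22 with vehicle. Its change was 1.14 ± 0.37 there, the difference 3.09 (adjusted p = 0.0607), and only LWT fenofibrate mouse 3 approached the WT treated mice. Ly6d was called without that mouse (3.53, adjusted p = 6.09e-05), as was Akr1c18 (1.67, adjusted p = 0.0202), and without WT treated mouse 3 (3.38, adjusted p = 0.0155). Slide as a block gave 3 calls, Ly6d (3.17), Degs2 (1.80) and Anxa13 (1.68), each at adjusted p = 0.0268.

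The level of Ppara was 5.03 to 6.06 in the KO mice and 6.84 to 7.28 in the WT mice, without overlap. The labels do not state which part of Ppara was deleted, and a probe outside that part would check nothing. With the same drug the median KO change was -0.03 for the 420 and 0.14 for the 275. WT minus KO was positive for 900 genes (5.64%) and negative for 858 (5.37%), among them 323 (76.9%) of the 420 and 188 (68.4%) of the 275. Since those genes were chosen on the same WT mice, these shares are a description, and the genes named next were in part chosen the same way. Leaving out KO vehicle mouse 1 gave 1299 negative genes. Cd36 changed by 0.09 ± 0.19 in KO mice, a difference of 3.51 ± 0.26, adjusted p = 5.03e-10. For Acot2 the difference was 5.61 ± 0.54, adjusted p = 4.44e-08, for Ehhadh 3.41 ± 0.44, adjusted p = 4.53e-06 and for Pdk4 4.51 ± 0.72, adjusted p = 7.04e-05. Plin2 (1.97 ± 0.38, adjusted p = 0.000678) differed too, and Mogat1 (4.62 ± 0.37, adjusted p = 1.38e-09), which was above background on 2 of 3 KO vehicle and 4 of 5 KO fenofibrate arrays. Vnn1 was above it on 1 of 3 and 0 of 5, so no KO change is given. Genes that fell in WT gave negative differences, as in Fgfr4 (-1.32 ± 0.17, adjusted p = 3.72e-06), C9 (-0.91 ± 0.25, adjusted p = 0.0149), Slco1a1 (-1.82 ± 0.26, adjusted p = 1.57e-05), Mup21 (-1.70 ± 0.19, adjusted p = 6.94e-07) and Ppp1r3c (-3.46 ± 0.84, adjusted p = 0.00633). For Slco1a1, Mup21 and Ppp1r3c the difference was larger than the fall in WT. Part of it was therefore a positive fitted change in the KO mice, where none of these genes was called. Over all genes tested, 2 were called higher and 0 lower with fenofibrate in KO mice.

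The differences of Cyp4a14 and Cyp4a10 did not pass that test, at 3.16 ± 1.46, adjusted p = 0.174 and 1.68 ± 0.96, adjusted p = 0.284. In KO mice Cyp4a14 read -4.11, 1.41 and 1.39 with vehicle and -0.25, -1.51, -0.94, 2.61 and 0.89 with fenofibrate, a wide and overlapping spread. Every KO mouse lay below every WT treated mouse. The 17 complement and coagulation genes with a negative difference, of 33, are read against the 5.37% above.

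**Figure D5:**
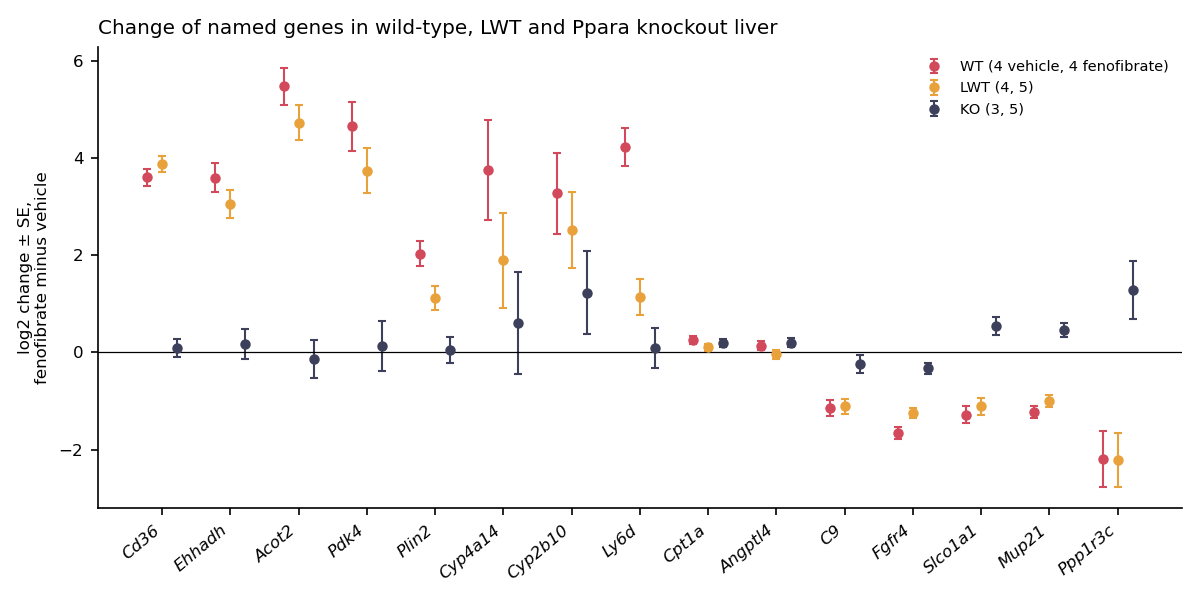
Change with fenofibrate (log2, vertical, with SE) in WT, LWT and KO mice for 15 genes (horizontal). WT and LWT points lie on the same side of 0 for all genes but Angptl4. KO points lie near 0 for Cd36, Ehhadh, Acot2, Pdk4 and Plin2, and Ly6d lies at 4.23 in WT and 1.14 in LWT.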

How the data were processed

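Liver RNA of 34 mice was hybridised to one-colour Agilent arrays, 1 mouse per array. Spot intensities on a linear scale were deposited by the authors. Per the file headers they came from Agilent Feature Extraction 10.10.1.1, and probes lie on mm9. A deposited flag marks spots well above background. The authors' deposited table of log2 values, used as an alternative, holds 32446 probes, and every column has a median of 7.63; limma is named in the submitters' processing notes. Its columns correlated with their own arrays at 0.999 or more, except the 3 of slide 1 (0.993), of which those of vehicle mouse 1 and KO fenofibrate mouse 1 matched another array better. Its normalization was not given in the sources used here.

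From the background-corrected intensities, control and outlier spots were dropped, spots of a probe averaged, log2 taken and the 75th percentile of each array subtracted. A probe entered if every array of 1 or more of the 8 groups flagged it well above background (31053 of 55681 probes), and the brightest stood for its gene. Of 55681 probes 32961 had a gene name, 27235 by RefSeq accession. In the 8 WT arrays 8 values of tested genes were missing and were left out of the fit. The number of arrays limits the precision, and labels name individual mice as replicates.

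The fit, group means of all 34 arrays in limma 3.58.1 (R 4.3.3), was tested on simulated data, with tables made in Python 3.11.15. At-least-fold bounds set the mean of the brighter group against, per array of the dimmer group, the lowest signal still well above background. The genes, the 34 lists and the 9 marker lists were chosen with earlier results of these data known. Named genes are 15 anchors, the 15 largest rises and falls, up to 6 called and 2 uncalled members per list, and called markers (293 in all). A further 31 were chosen after their values were seen: Acot12, Acadsb, Pipox, Cyp4f14, Cyp4v3, Cyp4f16, Pank4, Dgat2, Mlxipl, Mttp, Anxa13, Degs2, Akr1c18, Apoc3, Apoh, Gckr, Pgd, Taldo1, Pcx, Bckdhb, Mccc2, Gstk1, Ephx2, Gclm, Igfbp2, Stat5a, Hspa8, Pdia3, Bco1, Creb3l3 and Ncoa2. Deviations of same-numbered treated and vehicle mice correlated at -0.106 to 0.0885, and 1 of 8 mice correlated best with its own number, so replicate numbers were not used as pairs. Alternatives were other normalizations, filters, probe rules, slide or replicate blocks, the authors' values and leaving out each array. Some genes of the lists are counted but not reported here by name.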

Additional observations from a re-analysis of the deposited data

Results flagged for a closer look

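In groups of 4 mice, a value was singled out when its gap to the nearest other mouse was, as a share of the group's range, past Dixon's critical value for 4 values. Chance alone would flag about 1 in 20 groups, and 23 of the 480 groups checked were flagged, 15 of them vehicle groups, with vehicle mouse 1 in 8. Standing above its group, vehicle mouse 1 read 2.65 for Pklr, 4.35 for Fgfr4, 7.45 for Cyp2d40, 7.53 for Hspa5 and -0.86 for Hgf. It stood below its group at 1.30 for Sirt1, 4.25 for Pnpla2 and -0.45 for Gadd45b. Vehicle mouse 2 stood low for Bco1 (-1.06). Vehicle mouse 3 stood low for Apom (7.91) and Fbp2 (-6.68, not above background). Vehicle mouse 4 stood high for Cdo1 (7.30) and Socs2 (3.37) and low for Cd36 (-0.30) and Map2k6 (1.27).

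Among treated mice, mouse 2 stood high for Cyp4a12a (7.55) and low for Apof (6.68), C9 (1.6) and Cela2a (-6.11). Treated mouse 3 stood low for Sirt1 (0.84), Cyp4a31 (9.57), Slc10a2 (0.18) and Abcc3 (6.50). None of these mice was left out of the reported values.

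The response differed between WT and KO mice by limma's interaction test in 900 genes on the positive side and 858 on the negative side. Differences, as WT change minus KO change, were 5.61 for Acot2, 4.62 for Mogat1, 4.51 for Pdk4, 4.14 for Ly6d, 3.51 for Cd36, 3.41 for Ehhadh and 1.97 for Plin2. On the negative side they were -3.46 for Ppp1r3c, -1.82 for Slco1a1, -1.70 for Mup21, -1.32 for Fgfr4 and -0.91 for C9.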

How the results depend on the processing

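Across 20 alternatives for the WT comparison, genes called higher numbered 1274 to 1681 and genes called lower 1301 to 2156, apart from a fit on the WT arrays with replicate number as a block, which gave 954 and 948. The numbers do not pair the mice, and that block also leaves fewer degrees of freedom. Leaving out 1 mouse gave 1274 to 1476 higher and 1301 to 1651 lower. At least 2-fold calls were 269 and 164 with normexp and quantile normalization and 251 and 155 with the authors' values, in which vehicle mouse 1 matched another array better than its own; the cause was not tested. The median of all genes lay between -0.039 and 0.013. WT minus LWT, with 0 calls, gave 3 with slide as a block (Anxa13 1.68, Degs2 1.80, Ly6d 3.17, adjusted p = 0.0268 each). It gave 2 without LWT fenofibrate replicate 3 (Akr1c18 1.67, Ly6d 3.53) and 1 without WT fenofibrate replicate 3 (Ly6d 3.38). WT minus KO gave 718 to 1045 positive and 653 to 1299 negative genes when 1 array was left out, the highest without KO vehicle replicate 1. With 1 mismatch allowed, 0.554% of all promoter windows, 0.331% of those of genes at least 2-fold higher and 0.952% of those at least 2-fold lower held a match, and with 3 mismatches 24.6%, 31.1% and 24.3%.

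Of 235 named genes called, 150 kept their call in every alternative that could be computed. Ppara, not called, turned sign with the authors' values (-0.15), with slide as a block (-0.00), and without vehicle mouse 1 (-0.03) or 2 (-0.02) or treated mouse 2 (-0.01) or 4 (-0.00). Without 1 mouse it ranged from -0.03 to 0.11. Txnip turned to 0.17 with the mean of its probes. The replicate block ended 58 of the 235 calls, the authors' values 33 of 233, slide as a block 22 and no filter on dim probes 20. Changes of called genes moved over 1.5 times in 40 with the authors' values and 33 with normexp. Besides the genes given with their values when 1 mouse was left out, others that did so were Acot6 (1.66) and Cyp4a31 (3.29) with the mean of probes, and Acot5 (3.31) and Cfd (4.54) with slide as a block, leaving aside genes given as bounds. Dim genes are limited by signal over background: of 420 genes at least 2-fold higher, 25 were below background in all vehicle mice, and of 275 lower, 7 in all treated mice.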
